A study of Mus musculus with 42 samples.

Results

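The comparison set the response of cultured visceral fat stromal cells to oncostatin M (OSM) against their response to regulatory T (Treg) cells. It was made as a difference of differences, OSM minus PBS and then with Treg minus without Treg, over 12 of the 42 libraries of the series. Each of the 4 groups held 3 libraries. All 12 came from mouse visceral adipose tissue (VAT), from stromal cells of the population labelled VmSC5 with the genotype Pparg-Tdt, kept under adipogenic differentiation, the culture that turns stromal precursors into fat cells. The OSM wells received OSM at 10 ng/mL and the PBS wells the saline vehicle, entered as 0 ng/mL. For the Treg wells the titles give no more than the presence or absence of Treg, and the series text describes medium conditioned by VAT Treg cells. The study asked whether Treg cells act directly on these precursors to curb adipogenesis, and whether OSM is one of the mediators. The Pparg-Tdt construct, the sorting gate of VmSC5, the age of the mice and whether replicates were separate animals or wells are not given in the sources used here. P-values therefore measure the spread between these libraries, which may be technical.

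OSM is a cytokine of the interleukin-6 family. It binds OSMR or LIFR together with the shared chain gp130, encoded by Il6st, and the receptor activates JAK kinases, which phosphorylate the transcription factor STAT3. STAT3 switches on acute phase genes and Socs3, the inhibitor that shuts the receptor off again. Interferons signal through kinases of the same family and switch on antiviral genes and the genes of antigen presentation. Adipocyte formation rests on the transcription factors PPARG and C/EBPA, which turn on genes of lipid storage and of adipose hormones.

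Libraries of the OSM experiment held 1072147 to 2078534 counts and those of the Treg experiment 4648878 to 7933682, and 15559 to 20918 genes were detected per library. Correlations of log CPM (counts scaled to the library total) between replicates ran from 0.955 to 0.991. Mitochondrially encoded transcripts took 4.12% to 4.41% of counts without Treg, 1.77% to 2.03% with Treg, 2.39% to 2.91% in PBS and 1.52% to 1.64% in OSM. Depth follows the experiment, so its part in a difference between the responses cannot be told apart from that of the treatment. The controls also started from other levels. Adipoq, which encodes the hormone adiponectin, had a mean of 3490 ± 165 CPM without Treg and 271 ± 48.2 in PBS (SD, n = 3 each). Socs3 stood at 12.8 ± 1.69 and 32.4 ± 5.42 CPM in the same controls. The summed level of 29 proliferation genes was 407 to 430 CPM without Treg and 2350 to 2510 in PBS. The titles of the 12 libraries give no length of culture. Markers of the labelled stromal cell type were present: Col3a1, a fibrillar collagen chain, lay between 1880 and 45900 CPM in every library, and Dcn, the matrix proteoglycan decorin, between 1000 and 4490.

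Both treatments changed a large part of the transcriptome, and the larger share of the genes that answered both moved the same way. Of 12112 genes tested, 5159 were called with OSM (42.6%), 5034 with Treg (41.6%) and 4712 in no contrast (38.9%). With OSM 2487 rose (20.5%) and 2672 fell (22.1%) at an edgeR adjusted p under 0.05. With Treg, 2191 rose (18.1%) and 2843 fell (23.5%). The shares over all genes tested, for OSM and for Treg, are the measure for every list count below. The difference between the responses passed for 3941 genes (32.5%), in 1817 more positive under OSM (15%) and in 2124 more negative (17.5%). Called in both responses were 2908 genes, of which 2399 moved in the same direction and are termed shared. They make up 46.5% of the genes called with OSM and 47.7% of those called with Treg. The other 509 moved in opposite directions and are termed opposed, 9.87% and 10.1% of the same lists. A gene is termed OSM-only where OSM called it, Treg did not, and the difference itself passed with the sign of the OSM response. That held for 1447 genes, and the mirrored rule gave 783 Treg-only genes. The OSM-only genes were 790 higher (6.52%) and 657 lower (5.42%), the Treg-only genes 426 higher (3.52%) and 357 lower (2.95%). Among the opposed genes 229 were higher with OSM (1.89%) and 280 lower (2.31%). A further 804 genes were called with OSM (6.64%) and 1343 with Treg (11.1%) without a call of the difference, and 115 in the difference alone (0.949%), so they cannot be assigned. The 3 treated libraries did not overlap their controls in 49% of genes with OSM and 51.9% with Treg. No control library is shared by the experiments, and the log2 fold changes correlated across genes with Pearson's r of 0.23 and Spearman's rho of 0.37, a description in which genes are not independent replicates.

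**Figure D1:**
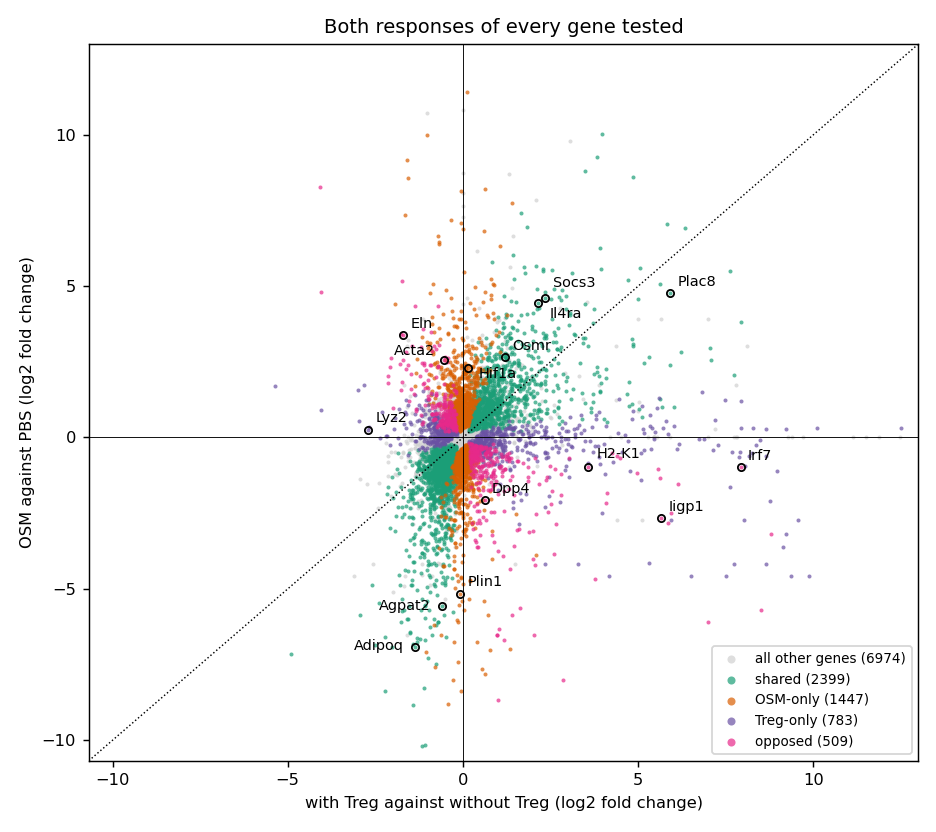
Each point is 1 of the 12112 genes tested, with the log2 fold change with against without Treg on the x axis, that of OSM against PBS on the y axis and the dotted line at equal responses. Colours give the classes with their counts, and genes with 0 counts in a group sit at their fitted value. The adipocyte genes Adipoq, Agpat2 and Plin1 lie far below the line at small Treg responses, while Irf7, Iigp1 and H2-K1 lie far to the right at OSM responses below 0.

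Shared genes had the larger median change with OSM. They were selected by a call in both experiments, and the OSM libraries held fewer counts. A call there can need a larger fold, and the part of this selection in the medians was not tested. Of the 1017 shared higher genes (8.4% of those tested), the difference was called more positive under OSM in 331 and more negative in 120, and the median log2 fold changes were 1.16 with OSM and 0.87 with Treg. Of the 1382 shared lower genes (11.4%), it was more negative under OSM in 605 and more positive in 31, with medians of -1.05 and -0.59. The medians over all genes tested were -0.01 and -0.06.

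Of the receptor chains of OSM, Osmr and Il6st rose in both experiments and further with OSM itself, while Lifr did not rise in either. Osmr, on mouse chromosome 15 from 6813577 to 6874969 (GRCm38), was at 79.2, 72.2 and 93.1 CPM without Treg and at 201, 199 and 183 with Treg. It was at 162, 178 and 169 CPM in PBS and at 997, 1020 and 1010 in OSM. The groups did not overlap in either experiment, and the log2 fold change was 2.65 ± 0.08 (SE) with OSM and 1.21 ± 0.08 with Treg (edgeR adjusted p of the difference 2.21e-14). Il6st, the gp130 chain on chromosome 13 from 112464070 to 112510086, rose from 280, 313 and 358 CPM to 1870, 1780 and 1650 with OSM. With Treg it rose from 220, 220 and 225 to 428, 423 and 341 CPM, and the log2 fold changes were 2.56 ± 0.09 and 0.79 ± 0.08. Lifr, the other partner of gp130, did not pass with OSM at -0.18 ± 0.12 (edgeR adjusted p = 0.232). Its Treg value was -0.26 ± 0.09 (edgeR adjusted p = 0.017), a call that ended without replicate 2 or 3 of without Treg, without replicate 3 of with Treg and in 3 other settings, matched depth among them. Il6ra, the interleukin-6 binding chain, moved in opposite directions, at -2.73 ± 0.57 with OSM (-4.25 without OSM replicate 3) and 0.46 ± 0.18 with Treg. The Treg call of Il6ra ended when any of the 3 libraries without Treg or replicate 1 or 2 with Treg was left out, and was also lost in DESeq2, at matched depth and with the replicate block. Il6 itself had 3 counts over the PBS libraries and 110 over the OSM libraries, a ratio of 43.4 (95% interval 14.5 to 214, counting error only), and its log2 fold change with Treg was 3.12 ± 0.40. Of the 8 receptor chains and interleukin-6 family ligands tested, 5 rose and 1 fell in each response, with medians of 1.47 with OSM and 0.63 with Treg.

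Of 22 STAT, JAK and SOCS genes tested, 10 rose and 1 fell with OSM, 12 rose and 2 fell with Treg, and 8 rose in both. The difference was called more positive under OSM in 6 and more negative in 3. Socs3, the STAT3-induced inhibitor of gp130, stood at 26.3, 34.2 and 36.7 CPM in PBS and at 709, 699 and 837 in OSM. It stood at 14.8, 11.7 and 12 CPM without Treg and at 74.9, 68.1 and 60.3 with Treg. Every treated library lay above its controls, at 4.61 ± 0.12 with OSM and 2.35 ± 0.12 with Treg (log2, edgeR adjusted p of the difference 1.19e-13). Stat3 rose by 1.40 ± 0.09 and 0.81 ± 0.07, and Jak2, a kinase of the receptor, by 2.78 ± 0.22 and 1.20 ± 0.18. Stat2, a factor downstream of type I interferon, rose by 0.62 ± 0.18 with OSM and by 4.02 ± 0.10 with Treg. Socs1, the feedback inhibitor of the interferon branch, rose by 4.46 ± 0.45 with Treg and was at 1.26 ± 0.58 with OSM (edgeR adjusted p = 0.0767, and 0.039 at matched depth). Stat5a rose by 0.77 ± 0.14 with OSM and fell by 0.44 on the log2 scale with Treg. Stat3 and Stat5a overlap at their ends on chromosome 11, and whether the counting used strand is not given in the sources used here.

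The promoter of Socs3 is shown because STAT dimers are known to bind the palindrome TTCNNNGAA, searched on both strands in the 300 bases around each gene start (250 before, 50 after) of the RefSeq promoter table. The stretch covers chr11:117969466-117969616 of GRCm38.p6, printed on the minus strand, on which the gene lies, with the 1 match within it in capitals. It is the first 151 bases of the window, and the bases nearer the start are not printed. GENCODE places the gene from 117966079 to 117970047, so by that annotation the stretch lies inside it. The match begins 154 bases before the start in the RefSeq table.

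Socs3: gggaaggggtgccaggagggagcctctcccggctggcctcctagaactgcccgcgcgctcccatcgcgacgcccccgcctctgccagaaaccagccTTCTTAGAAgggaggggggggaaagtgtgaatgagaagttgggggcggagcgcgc

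The same letters stood in 8.3% of all 32851 promoters of the table and in 6.89% of those of tested genes, against 9.2% for shared higher, 6.8% for OSM-only higher and 8.98% for Treg-only higher genes. The windows of Osmr and Adipoq held no match. A match is a description of letters, not of binding.

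**Figure D2:**
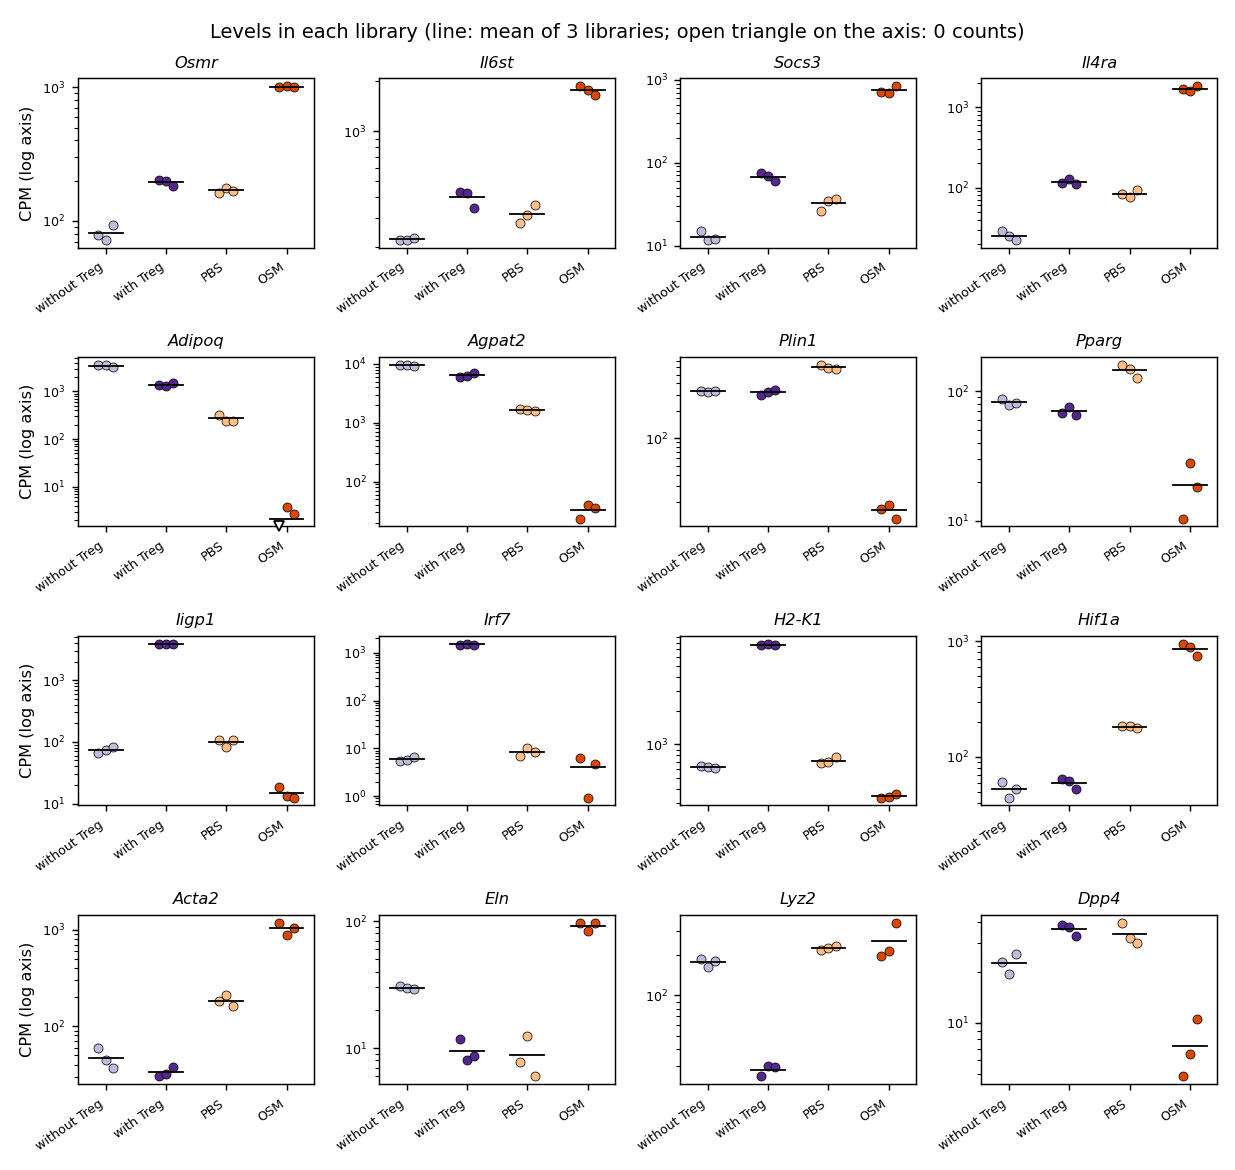
CPM on a log axis in each of the 12 libraries for 16 genes, with points for libraries, a line at the mean of 3 and an open triangle on the axis for a library with 0 counts. Osmr, Il6st, Socs3 and Il4ra are higher in both treated groups, Adipoq and Agpat2 lower in both, Iigp1, Irf7 and H2-K1 higher with Treg and lower with OSM, Hif1a, Acta2 and Eln higher with OSM, and Lyz2 lower with Treg.

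Most genes of the list of STAT3 targets and acute phase genes rose in both experiments. Of 40 tested, 26 rose and 4 fell with OSM and 31 rose with Treg, and 23 rose in both. The medians were 1.51 with OSM and 1.17 with Treg (1.56 and 1.17 with genes at 0 counts set at their bound). Il4ra, the interleukin-4 receptor chain, climbed from 82.7, 77.5 and 92.9 CPM to 1670, 1610 and 1830 with OSM and from 28.7, 24.8 and 22.4 CPM to 114, 127 and 111 with Treg. The groups stood apart in both experiments, and the rise was larger with OSM at 4.43 ± 0.09 against 2.15 ± 0.09. Timp1, the metalloproteinase inhibitor, rose by 3.01 ± 0.08 and 2.27 ± 0.08, and Lrg1, a secreted acute phase glycoprotein, by 4.12 ± 0.21 and 1.99 ± 0.12. Lcn2, the iron-siderophore binding lipocalin, leaned to Treg at 1.85 ± 0.15 with OSM and 2.93 ± 0.12 with Treg. Serping1, the C1 inhibitor, which stands in the complement list, rose by 1.99 ± 0.07 and 1.84 ± 0.06 (difference 0.16 ± 0.09, edgeR adjusted p = 0.176). Icam1, the leukocyte adhesion molecule, rose by 1.42 ± 0.13 and 1.79 ± 0.12, a difference of -0.37 ± 0.18 (edgeR adjusted p = 0.109), which passed without OSM replicate 3 (-0.48). Members outside the shared rise included Hp (haptoglobin), lower with OSM at -0.35 ± 0.07 and higher with Treg at 0.55 ± 0.06, and Hif1a, taken up below. A2m, the protease inhibitor alpha-2-macroglobulin, had 0 counts over the PBS libraries and 380 over OSM, at least 150-fold higher, with 2 counts without Treg and 3 with Treg. The call of its difference was lost at matched depth.

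Shared rises outside that list included Plac8, a small cysteine-rich protein of immune and epithelial cells. It lay at 26.3, 24.5 and 29 CPM in PBS and 655, 657 and 742 in OSM, and at 9.03, 7.21 and 6.88 CPM without Treg and 516, 477 and 467 with Treg. The groups stood far apart in both experiments, and the log2 fold changes of Plac8 were 4.78 ± 0.11 and 5.92 ± 0.10. Serpinb2, the plasminogen activator inhibitor PAI-2, was at least 13.9-fold higher with Treg (55 counts against 0 over the group, the floor being 3 counts over the group) but at 1.95 to 3.28 CPM, against 196 to 222 CPM with OSM. Cxcl5, a neutrophil chemokine, was at least 34.1-fold higher with Treg, at 5 to 7.31 CPM, and reached 236 to 271 CPM with OSM from 4.26 to 7.73 in PBS. Chl1, a neural cell adhesion molecule, was at 494 to 657 CPM with OSM and at 0.63 to 1.11 CPM with Treg, where its call was lost at matched depth. Serpinb2, Cxcl5 and Chl1 had 0 counts without Treg, and they are shared by call at levels with OSM far above those with Treg. Pi16, a marker of interstitial progenitors, rose by 4.09 ± 0.31 and 1.84 ± 0.27, and Col3a1 by 2.73 ± 0.08 and 1.87 ± 0.08.

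The adipocyte program fell in both experiments, and on the log2 scale much deeper with OSM. The controls started from unlike levels, so falls in CPM need not follow that order. The summed level of the list went from 37500 to 40700 CPM in PBS to 3500 to 4330 in OSM. It went from 75000 to 78200 CPM without Treg to 46800 to 50500 with Treg. Of 33 adipocyte genes tested, 29 fell and 1 rose with OSM, and 29 fell with Treg. In 27 the fall was shared, and the difference was more negative under OSM in 25. The medians were -3.73 with OSM and -0.75 with Treg. With genes at 0 counts at their bound, and genes at 0 in both PBS and OSM left out, the OSM median was -3.68. Adipoq, on chromosome 16 from 23146536 to 23158028, stood at 327, 243 and 244 CPM in PBS and at 0, 3.73 and 2.63 in OSM. Without Treg it stood at 3570, 3590 and 3300 CPM and with Treg at 1340, 1320 and 1490. The groups were apart in both experiments, and the log2 fold changes were -6.91 ± 0.27 and -1.38 ± 0.09 (edgeR adjusted p of the difference 5.32e-11). Adig, the adipogenin gene of fat droplets, had 205 counts over the PBS libraries and 0 over OSM, at least 57.7-fold lower. Agpat2, which makes phosphatidic acid for triglycerides, went from 1700, 1620 and 1610 CPM to 23.3, 39.2 and 35.5 with OSM and from 9590, 9460 and 9320 to 6100, 6230 and 7010 with Treg. Agpat2 overlaps its neighbour Egfl7 at one end. Cidec, a protein of lipid droplet fusion, fell by 6.45 and 1.50 on the log2 scale, and Fabp4, the fatty acid carrier, by 3.03 and 0.43. Plin1, the coat protein of the lipid droplet, fell by 5.16 with OSM, from 636, 594 and 578 CPM to 16.8, 18.7 and 13.1. With and without Treg it overlapped, at 298, 322 and 337 against 326, 319 and 332 CPM (-0.08 ± 0.07, edgeR adjusted p = 0.367), so Plin1 was OSM-only. Sncg, a synuclein found in fat, was the member that rose with OSM, at 1.75 ± 0.59, a call that ended without PBS replicate 1 or OSM replicate 2 (2.65 without PBS replicate 2). These are bulk libraries, in which fewer adipocytes and less adipocyte RNA per cell cannot be told apart.

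**Figure D3:**
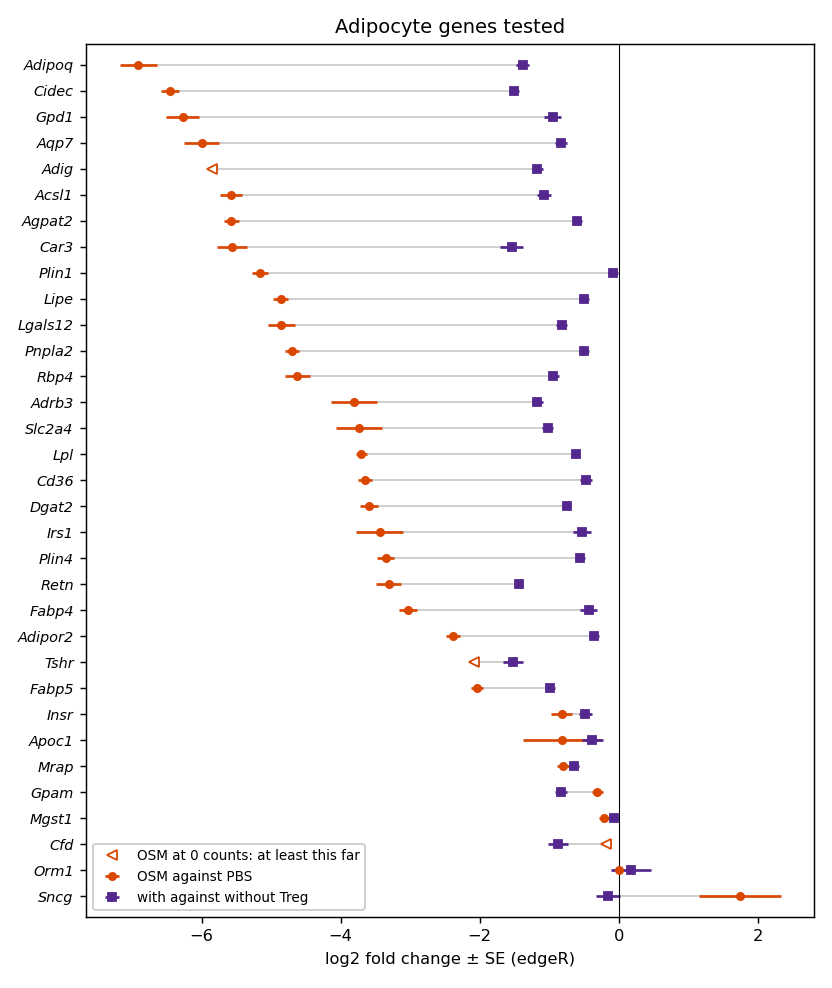
Log2 fold changes ± SE of the 33 adipocyte genes tested, with circles for OSM against PBS and squares for with against without Treg. Open triangles mark the bound of Adig, Cfd and Tshr, which had 0 counts in OSM and counts in PBS. A gene with 0 counts in both PBS and OSM has no bound, and its circle lies at the fitted value. At Adipoq the circle lies at -6.91 and the square at -1.38, while Plin1 has its circle at -5.16 and its square at -0.08.

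The transcription factors of adipogenesis showed the same order. Pparg, the master regulator, stood at 160, 150 and 127 CPM in PBS and at 10.4, 28 and 18.4 in OSM. It stood at 87, 78.5 and 81.7 CPM without Treg and at 68.7, 75.8 and 65.7 with Treg. The groups did not overlap, and the log2 fold changes were -2.90 ± 0.17 and -0.29 ± 0.10. The Treg call of Pparg (edgeR adjusted p = 0.0172) ended without replicate 1 of without Treg (-0.24), without replicate 1 of with Treg (-0.27), without the low-count filter (-0.25) and at matched depth (-0.32). Cebpa fell by 3.24 and 0.52, and Srebf1, which drives lipid synthesis genes, by 1.79 and 0.64. Ebf2, a factor of preadipocyte identity, fell by 1.94 with OSM and 0.35 with Treg, the latter call being lost at matched depth. Of 19 factors tested, 12 fell and 2 rose with OSM and 8 fell and 2 rose with Treg, and the medians were -1.51 and -0.12. Of 20 anti-adipogenic regulators tested, 7 rose and 6 fell with OSM and 7 rose and 1 fell with Treg. Among them Ddit3, the stress factor CHOP, fell by 1.43 with OSM and rose by 1.87 with Treg, and Id3, an inhibitor of basic helix-loop-helix factors, rose by 1.30 with OSM. Its Treg value of 0.20 ± 0.09 (edgeR adjusted p = 0.0722) passed without replicate 2 of without Treg, without PBS replicate 1 or 3, without any one OSM library and in 3 other settings.

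Lipid synthesis fell in both experiments with a smaller median difference, -0.63, than the adipocyte genes at -3.08 or the lipolysis genes at -1.30. Of 22 enzymes tested, 18 fell and 1 rose with OSM and 21 fell and 1 rose with Treg, with medians of -1.72 and -0.97, and 18 fell in both. Fasn, the fatty acid synthase, stood at 556, 493 and 543 CPM in PBS, 219, 195 and 221 in OSM, 5430, 5060 and 5090 without Treg and 2370, 2480 and 2800 with Treg. The groups did not overlap in either experiment, and the falls were -1.24 ± 0.08 and -1.08 ± 0.07 (difference -0.16 ± 0.11, edgeR adjusted p = 0.27). Scd1, the stearoyl-CoA desaturase, fell by 2.01 with OSM and 1.46 with Treg, a difference of -0.55 ± 0.16 whose call ended without replicate 3 of without Treg (-0.54, edgeR adjusted p = 0.0517). Acly, the ATP citrate lyase that feeds fatty acid synthesis, fell with Treg only: it went from 4290, 4100 and 3860 to 1620, 1650 and 1720 CPM (-1.35 ± 0.06) and from 587, 572 and 551 CPM in PBS to 464, 519 and 513 in OSM (-0.11 ± 0.07, edgeR adjusted p = 0.207). Lipolysis and fatty acid oxidation genes fell in 21 of 24 with OSM and in 20 of 24 with Treg, with medians of -2.21 (-1.85 at the bound) and -0.68. Pnpla2, the first lipase of stored fat, fell by 4.70 and 0.50, and Lipe, the hormone-sensitive lipase, by 4.86 and 0.50.

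Nuclear genes of oxidative phosphorylation fell with each treatment, 31 of 33 tested with OSM and 33 of 33 with Treg, with medians of -1.12 and -0.77. Cycs, cytochrome c, fell by 2.33 and 0.84 and Atp5b, an ATP synthase subunit, by 1.33 and 0.53. For the mitochondrially encoded genes the medians were in the reverse order, -0.47 with OSM and -1.23 with Treg: 6 of 11 fell and 1 rose with OSM, 11 of 11 fell with Treg, and the difference was more positive under OSM in 5. mt-Nd1, a complex I subunit, fell by 1.18 and 1.83. mt-Nd4, of the same complex, overlapped between PBS and OSM and fell from 1660, 1740 and 1790 CPM to 913, 857 and 912 with Treg, so it was Treg-only.

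The interferon response set the experiments apart, with the largest median differences of the 35 lists, -6.96 for type I and -5.23 for gamma. These medians use fitted values without a bound, and 5 type I and 8 gamma genes had 0 counts over PBS or OSM. The low-count filter took the 4 groups together, so a gene high with Treg alone could be tested. For such genes little of an OSM response could be seen. They also passed the filter through their level with Treg, so a count of rises with Treg among genes tested can be raised by it. Of the gamma list 33 of 36 genes were tested, and of the type I list 32 of 32. All 33 interferon gamma response genes tested rose with Treg, at a median of 5.40. With OSM 4 of them rose and 10 fell, at a median of -0.37 (the same with genes at 0 counts at their bound). Of 32 type I interferon response genes, 31 rose and 1 fell with Treg, at a median of 7.02, and 3 rose and 6 fell with OSM, at a median of -0.43 (-0.22 with genes at 0 counts at their bound). The difference was more negative under OSM in 24 gamma and 30 type I genes. The summed level of the gamma list nevertheless rose with OSM, from 2830 to 3000 CPM in PBS to 5010 to 5480. With Treg it went from 3070 to 3120 CPM to 25600 to 25800. The type I sum was 609 to 671 CPM in PBS, 299 to 338 in OSM, 932 to 957 without Treg and 13200 to 14600 with Treg. Irf7, the factor that amplifies type I interferon, lay at 5.38, 5.83 and 6.67 CPM without Treg and at 1480, 1540 and 1480 with Treg, a log2 fold change of 7.93 ± 0.11. In PBS and OSM it lay at 6.95, 10.1 and 8.53 against 6.42, 0.933 and 4.6 CPM, and its fall of 0.99 ended as a call without PBS replicate 2 or 3 or OSM replicate 3, without OSM replicate 2 (-0.60), without the low-count filter and with each experiment fitted alone. Iigp1, an interferon-inducible GTPase, is an opposed gene with high levels: 67.2, 74.1 and 81.7 CPM without Treg became 3860, 3810 and 3880 with Treg, and 108, 83.2 and 108 in PBS became 18.5, 13.1 and 12.5 in OSM. Its log2 fold changes were 5.65 ± 0.09 and -2.67 ± 0.16. Bst2, the membrane tether of viruses, rose by 5.62 and fell by 1.35 with OSM. Rsad2, the antiviral enzyme viperin, went from 0.307 to 0.695 CPM without Treg to 491 to 612 with Treg and had 4 counts over PBS and 0 over OSM. Ifi44 had 1 count over the libraries without Treg and 11874 with Treg, a ratio of 9010 (95% interval 1620 to 356000, counting error only). In the OSM experiment Ifi44 had 2 counts in each group, so no response was detectable at this depth.

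Exceptions stood in both lists. Gbp2, a guanylate-binding protein, rose in both experiments, by 1.01 ± 0.24 with OSM and 5.68 ± 0.10 with Treg. Parp14 and Isg20, an ADP-ribosyltransferase and an exonuclease, also rose in both, by 1.43 and 0.86 with OSM and 4.67 and 2.18 with Treg. Ifi27 fell in both, at -1.79 ± 0.10 and -1.91 ± 0.08 (difference 0.12 ± 0.13, edgeR adjusted p = 0.543). Reads of Gbp, Ifit, H2 class I and Ly6 genes may be split between near-identical copies, so single members of these families are uncertain.

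The promoters of Isg15 and Ifit3 are shown for the interferon response element, searched on both strands as a pair of GAAA with 2 bases of any kind between them. Isg15, the ubiquitin-like modifier, went from 1.56, 0.92 and 1.08 CPM without Treg to 545, 585 and 551 with Treg (8.80 ± 0.14). It had 13 counts over PBS and 1 over OSM, a ratio of 11 (95% interval 1.65 to 467), and its OSM call ended without PBS replicate 2. Ifit3, an inhibitor of viral translation, went from 1.39, 1.53 and 4.73 CPM to 1560, 1560 and 1310 with Treg (9.21 ± 0.19). It too had 13 counts over PBS and 1 over OSM, a difference that did not pass (edgeR adjusted p = 0.0673) but did without replicate 1 or 3 of without Treg, replicate 3 of with Treg or PBS replicate 3 and in 4 other settings. The Isg15 stretch is chr4:156200819-156201068 on the minus strand, with 3 overlapping matches that begin 78, 72 and 66 bases before the start. The Ifit3 stretch is chr19:34583279-34583528 on the plus strand, with 2 matches on the other strand, read here as TTTCACTTTC and TTTCAGTTTC, that begin 156 and 122 bases before the start. Both come from the RefSeq table of GRCm38.p6, with the matches in capitals.

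Isg15: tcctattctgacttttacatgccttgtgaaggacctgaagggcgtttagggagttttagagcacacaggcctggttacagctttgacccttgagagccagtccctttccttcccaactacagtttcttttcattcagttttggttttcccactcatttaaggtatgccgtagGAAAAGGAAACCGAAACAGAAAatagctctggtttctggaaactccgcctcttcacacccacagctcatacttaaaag
Ifit3: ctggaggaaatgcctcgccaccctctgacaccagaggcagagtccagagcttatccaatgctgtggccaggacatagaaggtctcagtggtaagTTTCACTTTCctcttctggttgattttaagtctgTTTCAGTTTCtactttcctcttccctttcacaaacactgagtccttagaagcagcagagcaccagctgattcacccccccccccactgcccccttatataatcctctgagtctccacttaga

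The motif stood in 67 of 423 promoters of Treg-only higher genes (15.8%), against 3.44% of all promoters and 3.17% of those of tested genes. It stood in 5.84% for opposed genes lower with OSM, 4.74% for shared higher genes and 1.76% for OSM-only higher genes. A STAT match and an interferon match overlapped in 24 promoters of the table. The motif that nuclear receptor pairs such as PPARG with RXR are known to bind, searched as TGACCT and TGNCCT with 1 base of any kind between them, stood in 0.0944% of all promoters and in at most 0.344% of any class, too few matches to compare.

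**Figure D4:**
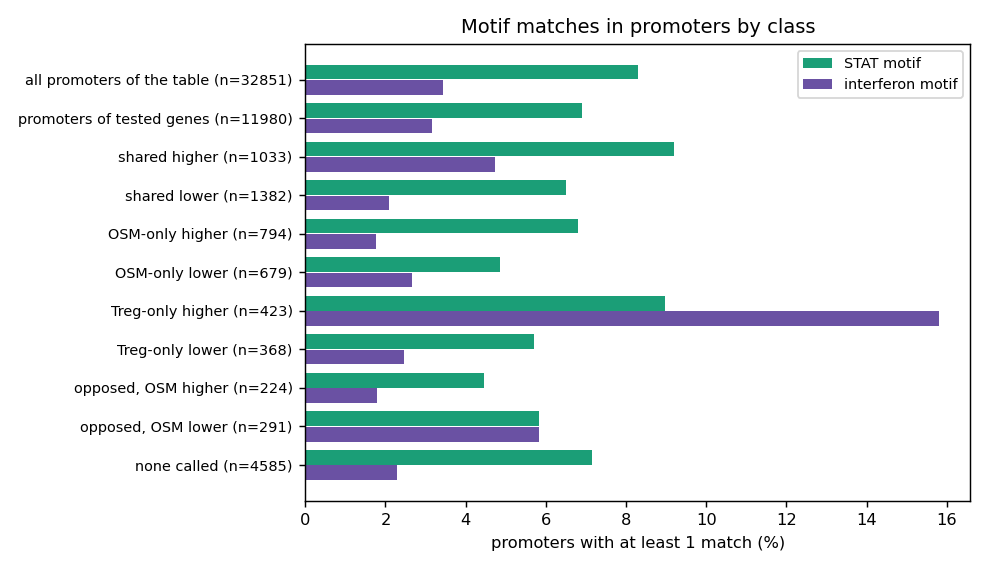
Share of promoters (percent, bars from 0) that hold at least 1 match of the STAT motif or the interferon motif, for all promoters, tested genes and each class, with the number of promoters per row. The interferon bar of Treg-only higher genes reaches 15.8%, against 3.17% for tested genes, while the STAT bars stay between 4.46% and 9.2%.

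Antigen presentation followed the interferon genes. All 17 genes of MHC class I and II presentation tested rose with Treg, at a median of 3.56, and 4 rose and 3 fell with OSM, at a median of 0.02 (0.27 with genes at 0 counts at their bound). H2-K1, a classical class I heavy chain, rose from 641, 626 and 613 CPM to 7570, 7810 and 7670 with Treg and fell from 680, 700 and 774 CPM in PBS to 338, 344 and 362 in OSM. The groups were apart in both experiments, at 3.56 ± 0.07 and -0.96 ± 0.07. B2m, the light chain of class I, rose by 2.55 and fell by 1.76 with OSM, and H2-D1 rose by 2.38 and fell by 1.41. Psmb8, an immunoproteasome subunit, rose by 5.47 with Treg and was at 0.17 ± 0.15 with OSM (edgeR adjusted p = 0.404). The class II chain H2-Ab1 rose in both, from 0.773, 3.37 and 4.26 CPM to 21.7, 27 and 17.1 with OSM and from 0.174, 0.767 and 0.215 CPM to 62.6, 57.7 and 62.8 with Treg. Other class II genes did not show the rise with OSM. H2-Aa had 0 counts over OSM, while it had 383 with Treg and 0 without. Cd74 had 3 counts over OSM and 3 over PBS.

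Chemokines rose in both experiments and, for most, further with Treg, among the 17 of 28 that passed the filter on the 4 groups. Of 17 tested, 11 rose and 2 fell with OSM, 16 rose and 1 fell with Treg, and 10 rose in both, with medians of 1.25 and 4.84 and a difference more negative under OSM in 12. Ccl7, a monocyte chemokine, went from 17, 10.1 and 6.82 CPM to 71.4, 75.5 and 78.8 with OSM and from 3.47, 2.15 and 3.01 CPM to 236, 222 and 206 with Treg. Its log2 fold changes were 2.82 ± 0.19 and 6.22 ± 0.14. Ccl11, the eosinophil chemokine eotaxin, rose by 2.45 and 5.18. Ccl2 rose by 1.12 ± 0.33 with OSM, a call that ended without OSM replicate 3 (0.96), and by 4.82 ± 0.17 with Treg. Cxcl9 and Cxcl10, which recruit T cells under interferon, reached 158 to 163 and 36.5 to 55.5 CPM with Treg and had 0 counts over the OSM libraries. Cxcl12, the homing factor of stroma, rose further with OSM, at 1.25 ± 0.07 against 0.31 ± 0.07 (0.19 without replicate 1 of with Treg). Of 21 NF-kappaB targets and adhesion molecules, 13 rose and 1 fell with OSM and 16 rose with Treg. Tnfaip2 leaned to OSM (3.19 and 1.57) and Nfkbiz, a nuclear regulator of NF-kappaB, to Treg (0.89 and 2.24). Of 20 complement genes, 14 rose with OSM and 11 rose and 3 fell with Treg. Cfb, the factor B of the alternative pathway, rose by 0.84 with OSM and 3.65 with Treg.

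Contractile and glycolytic genes belonged to the OSM side. Of 17 contractile and myofibroblast genes tested, 15 rose and 1 fell with OSM and 7 rose and 2 fell with Treg, with medians of 2.01 and 0.18 and a difference more positive under OSM in 12. Acta2, smooth muscle actin, climbed from 182, 208 and 160 CPM to 1180, 880 and 1030 with OSM (2.56 ± 0.18). Its values without Treg (58.9, 44.5 and 36.4 CPM) and with Treg (30.1, 31.8 and 37.6) overlapped, and the Treg value of -0.55 ± 0.20 (edgeR adjusted p = 0.0487) ended as a call without any one PBS library, without OSM replicate 3, without replicate 1 (-0.35) or 2 of without Treg, without replicate 1 or 2 of with Treg and with the replicate block. Myl9, a myosin light chain, rose with OSM only, from 34, 40.9 and 34.1 CPM to 189, 176 and 189 (2.40 ± 0.17), and was at -0.07 ± 0.19 with Treg. Ccn4, a matricellular protein of the WNT pathway, rose with OSM only by 3.65 ± 0.16. The exception was Ccn5, of the same family, which fell by 0.81 with OSM and rose by 0.88 with Treg. Beside these genes, the summed level of 9 pericyte and smooth muscle markers, Acta2 among them, was 1000 to 1320 CPM in OSM and 236 to 317 in PBS, with none at 0 over a group; it was 172 to 190 CPM with Treg and 238 to 258 without, and its part in the result was not tested.

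Hif1a, the oxygen-regulated factor that drives glycolysis, was at 185, 185 and 177 CPM in PBS and 946, 896 and 739 in OSM. Its Treg groups overlapped, at 65, 62.1 and 52.8 CPM with and 60.4, 44.6 and 53.3 without, and the log2 fold changes were 2.31 ± 0.10 and 0.14 ± 0.10. Of 23 glycolysis and hypoxia genes, 16 rose and 2 fell with OSM and 7 rose and 10 fell with Treg, with medians of 0.94 and -0.10, and the difference was more positive under OSM in 16. Ldha, lactate dehydrogenase A, rose by 0.94 ± 0.06 with OSM and fell by 0.34 with Treg. Pdk1, the kinase that keeps pyruvate out of the citric acid cycle, rose by 2.66 ± 0.18 with OSM and fell by 0.51 with Treg (-0.33 without replicate 3 of with Treg), the latter call being lost at matched depth. Eno1 and Pgk1, glycolytic enzymes, rose with OSM only, by 1.08 and 1.16. Pkm, pyruvate kinase, rose in both, by 1.58 and 0.34, and Aldoa, an aldolase, fell in both, by 0.48 and 0.24. Eno1, Pgk1 and Aldoa have close copies in the genome, so their levels are uncertain.

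Other OSM-only rises included genes at or near 0 counts in PBS and genes measured there. The low-count filter took the 4 groups together, so a gene high with OSM alone could be tested. Where such a gene had few counts with and without Treg, little of a Treg response could be seen. Kit, the stem cell factor receptor, had 142 counts over OSM and 0 over PBS, at least 56-fold higher, and Wnt16, a secreted WNT ligand, had 80 against 0, at least 31.6-fold higher. Wnt16 had 1 count without Treg and 0 with Treg, and the call of its difference ended at matched depth and without replicate 1 of without Treg. Sfrp4, a secreted WNT antagonist, had 299 counts over OSM and 3 over PBS, a ratio of 118 (95% interval 40 to 575), and 1.25 to 2.09 CPM with Treg. Mmp9, gelatinase B, had 85 counts against 1, a ratio of 101 (17.6 to 4020), with 6.53 CPM in OSM replicate 2 and 28.1 and 28.3 CPM in the others. Adamts4, an aggrecanase, rose from 25.5, 32.2 and 33.2 CPM to 220, 260 and 234 and was at 0.15 ± 0.19 with Treg. Angpt2, the vascular ligand angiopoietin-2, rose by 4.17 ± 0.26 with OSM, from 1.71 to 10.1 CPM in PBS to 90.7 to 131. On the falling side, Thbs2, a matricellular thrombospondin, went from 323, 422 and 396 CPM to 14.4, 12.1 and 11.2 with OSM and was at 0.01 ± 0.09 with Treg. Postn, periostin, fell by 2.91 with OSM (-0.12 ± 0.07 with Treg). Hpgd, which breaks down prostaglandins, fell by 6.02, from 59.7 to 87.3 CPM to 0.802 to 1.31, and its Treg value of -0.17 ± 0.08 passed without replicate 3 of with Treg (-0.20).

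Treg-only lower genes included Lyz2, Cilp, Gem, Nrp2 and Spp1. Lyz2, lysozyme, lay at 186, 162 and 181 CPM without Treg and at 25, 29.9 and 29.2 with Treg (-2.70 ± 0.18), and at 219, 227 and 232 in PBS and 196, 214 and 348 in OSM. The OSM groups overlapped, at 0.26 ± 0.18, a value that passed without OSM replicate 1 (0.43). Lyz2 is a macrophage gene as well. The summed level of 16 macrophage and myeloid markers, Lyz2 among them, was 216 to 248 CPM with Treg, 295 to 348 without, 369 to 389 in PBS and 331 to 555 in OSM, with S100a9 at 0 in each group and S100a8 at 0 in PBS and OSM. Its part in the fall was not tested. Of the 13 tested, 4 rose and 1, Lyz2, fell with Treg and 2 rose with OSM. Over all genes tested, 18.1% rose and 23.5% fell with Treg and 20.5% rose with OSM. Cilp, a cartilage matrix protein, fell from 503, 511 and 634 CPM to 117, 106 and 108 with Treg and overlapped between PBS and OSM (-0.01 ± 0.26). Gem, a small GTPase that limits calcium channels, fell by 2.69 with Treg, from 40.3, 34.4 and 38.1 CPM to 5.42, 8.06 and 4.59, and was at 0.35 ± 0.20 with OSM. Nrp2, a co-receptor of semaphorins and VEGF-C, fell by 2.09 with Treg and was at -0.24 ± 0.27 with OSM. Spp1, osteopontin, stood at 68.1 CPM in replicate 1 without Treg and 13 and 8.6 in the others, and its value of -2.99 with Treg (-1.54 without replicate 1 of without Treg) ended as a call when any library with Treg was left out, without the low-count filter, at matched depth and with each experiment fitted alone. Its OSM value of 1.56 ± 0.70 passed without replicate 1 of without Treg and in 3 other settings.

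Opposed genes higher with OSM included Eln, Tgfbi, Aplnr and Cd93. Of 32 collagens and fibrous matrix genes tested, 16 rose and 12 fell with OSM and 15 rose and 9 fell with Treg, and as many were opposed and higher with OSM (3) as opposed and lower (3). Eln, the elastin of elastic fibres on chromosome 5 from 134702593 to 134747323, rose from 7.73, 12.5 and 5.97 CPM to 96.3, 83 and 97.2 with OSM and fell from 30.6, 29.9 and 29 CPM to 11.7, 8.06 and 8.63 with Treg. The groups did not overlap, at 3.38 ± 0.21 and -1.70 ± 0.15. Tgfbi, a matrix protein induced by TGF-beta, rose from 6.95, 7.22 and 11.1 CPM to 153, 159 and 162 with OSM, while its Treg value of -0.71 ± 0.25 ended as a call without replicate 1 of without Treg, without replicate 1 or 2 of with Treg and in 3 other settings. Aplnr, the apelin receptor, rose from 1.44 to 4.26 CPM to 49.7 to 69.6 with OSM and fell from 2.3 to 6.95 CPM to 0.139 to 0.378 with Treg. Cd93, a receptor of endothelial cells, rose by 2.38 and fell by 1.56 on the log2 scale. Both genes are known from blood vessels. Of 10 endothelial markers tested, 7 rose with OSM and 2 rose and 1 fell with Treg, at medians of 1.87 and -0.69. The summed level of 11 endothelial markers was 298 to 350 CPM in OSM, 98.9 to 116 in PBS, 48.8 to 91.2 with Treg and 90.1 to 113 without, with Vwf at 0 without Treg. Pecam1, which defines endothelium, was at 11.6, 14 and 12.8 CPM in PBS and 57.8, 50.4 and 74.2 in OSM. The part of endothelial cells in these results was not tested.

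Opposed genes lower with OSM outside the interferon lists included Dpp4, Smpd3, Gdf15, Fgf21 and Upk3b. Dpp4, the surface marker of interstitial progenitors, fell from 39.4, 31.8 and 29.8 CPM to 4.81, 6.53 and 10.5 with OSM and rose from 23.1, 19.5 and 25.8 CPM to 38.3, 37.3 and 32.9 with Treg. The log2 fold changes were -2.07 ± 0.27 and 0.62 ± 0.13. Of 18 DPP4+ progenitor markers, 7 rose and 5 fell with OSM and 12 rose with Treg, and the difference was more negative under OSM in 12. Smpd3, a neutral sphingomyelinase, fell by 2.20 with OSM and rose by 2.50 with Treg. Ly6c1 and Ly6a, surface proteins of mouse stroma that interferon also induces, rose in both, by 1.83 and 1.80 with OSM and 4.75 and 3.94 with Treg. Among 19 immediate early and stress genes, 7 were opposed and lower with OSM, with Ddit3 and Trib3, a pseudokinase of the same stress pathway (-1.56 and 0.85), among them. Gdf15, a stress-induced cytokine, fell by 2.46 with OSM and rose by 2.43 with Treg. Fgf21, a metabolic hormone, fell by 3.63 with OSM, to 0 to 3.94 CPM, and its rise of 0.41 with Treg ended as a call without replicate 1 or 3 of without Treg, without replicate 3 of with Treg (0.27) and at matched depth. Upk3b, a mesothelial gene, had 72 counts over PBS and 0 over OSM, at least 20.3-fold lower, and rose by 0.99 ± 0.30 with Treg, a call lost without replicate 1 of with Treg (0.70) and at matched depth. Of 7 mesothelial markers, 5 fell and 1 rose with OSM and 5 rose with Treg. Wt1, a mesothelial transcription factor, rose in both. The summed level of 10 markers was 124 to 177 CPM in OSM against 109 to 167 in PBS, 43.3 to 70.5 with Treg and 23 to 24.7 without, with Upk3b and Krt8 at 0 in OSM. The part of mesothelial cells in these values was not tested.

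Cholesterol genes also parted. Of 22 tested, 9 rose and 8 fell with OSM and 1 rose and 15 fell with Treg, and the difference was more positive under OSM in 12. Sqle, squalene epoxidase, rose by 0.60 ± 0.12 with OSM and fell by 0.41 with Treg, the latter call being lost at matched depth. Abcg1, the cholesterol exporter, did the reverse: it fell from 77.3, 87.1 and 82.7 CPM to 10.4, 9.33 and 13.1 with OSM and rose by 0.25 ± 0.08 with Treg, a call that ended without replicate 1 (0.21) or 3 (0.20) of without Treg. Of 29 proliferation genes, 12 fell with OSM and 2 rose and 11 fell with Treg. Their summed level was 2350 to 2510 CPM in PBS, 1640 to 1950 in OSM, 407 to 430 without Treg and 422 to 468 with Treg. Rrm2, a ribonucleotide reductase subunit, fell by 0.70 with OSM and rose by 1.23 with Treg. Of 12 stromal cell markers, 9 rose with OSM and 9 rose and 1 fell with Treg. Their summed level was 14900 to 15100 CPM in PBS, 55400 to 65800 in OSM, 6000 to 7050 without Treg and 19100 to 21600 with Treg, with none at 0 over a group. Markers of T cells were at or near 0: 1 of 25 passed the filter on low counts, their summed level was 14.5 to 16.1 CPM with Treg against 10.6 to 12 without and 17.7 to 31.7 in OSM against 14 to 16.2 in PBS. Of the 25, 7 had 0 counts over the libraries with Treg (Foxp3, Cd3e, Cd3g, Cd4, Cd5, Trbc1 and Trbc2) and 12 over those without. Cd3d, Cd247, Cd8a, Zap70, Cd2, Ctla4 and Klrg1 had counts with Treg and 0 without, while Foxp3 and Cd3e were the reverse. The part of T cell RNA in these values was not tested.

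**Figure D5:**
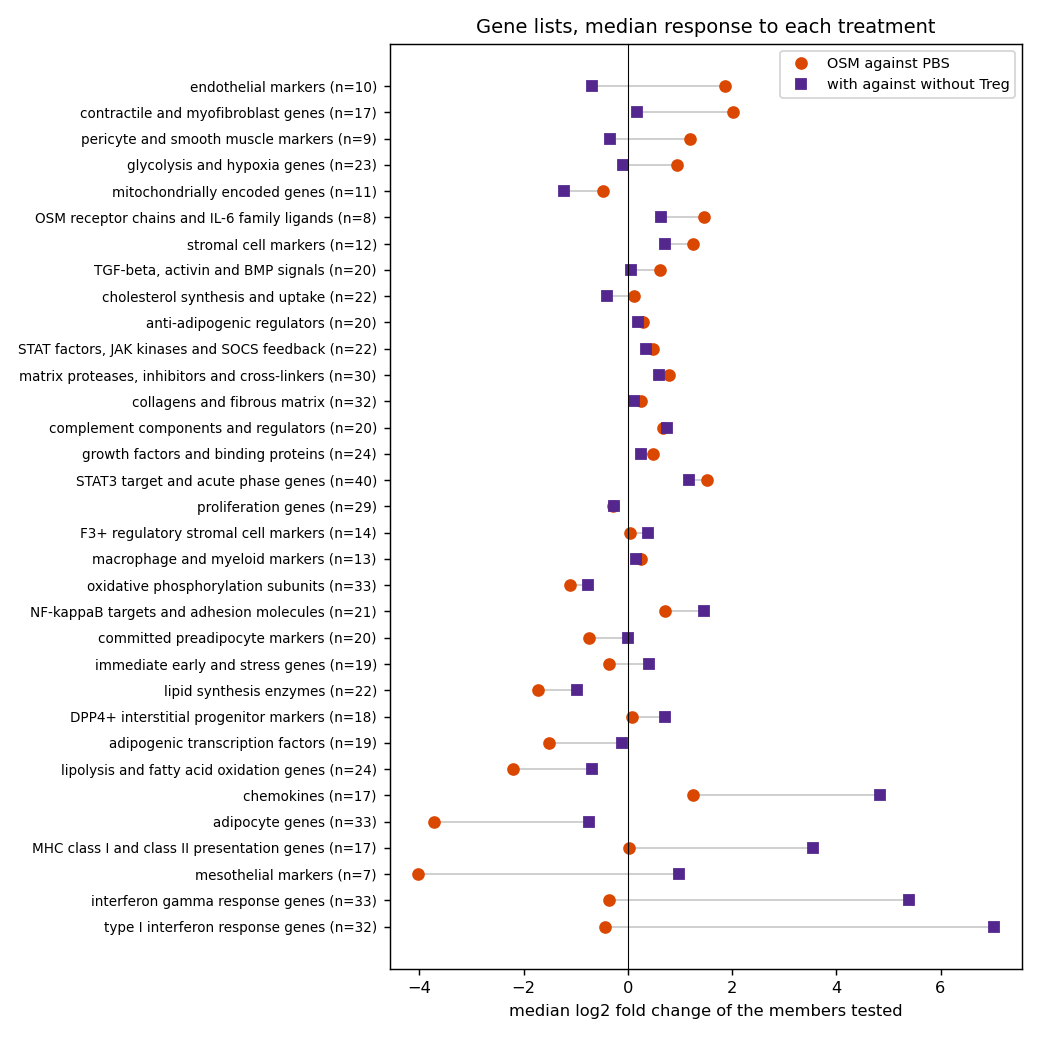
Median log2 fold change of the members tested in each gene list, with circles for OSM against PBS and squares for with against without Treg, ordered by the median difference. The type I interferon list has its square at 7.02 and its circle at -0.43, the adipocyte list its square at -0.75 and its circle at -3.73, and the contractile list its square at 0.18 and its circle at 2.01.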

How the data were processed

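Bulk RNA-seq counts per gene were used as deposited. The authors aligned reads with STAR 2.7.3a to mm10 and counted them with featureCounts, per the submitters' processing notes. The annotation release and strand setting are not given in the sources used here, and the library protocol was that of ImmGen for low input, per the labels. The deposited table held 55011 genes in 42 columns. All columns belonged to listed libraries, and 12 were used here. No pair of the 12 columns was identical.

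Genes were kept by filterByExpr (count minimum 10), which left 12112 of the 30834 with a count. Libraries were scaled by TMM, and 1 robust quasi-likelihood model with 4 groups was fitted in edgeR 4.0.16 (limma 3.58.1, R 4.3.3), with no covariate. The OSM response, the Treg response and their difference were contrasts of that fit. P-values were adjusted by Benjamini-Hochberg over all genes tested, and a gene was called at an adjusted p under 0.05. CPM values divide by the library total, and standard errors were derived from the F statistic. The procedure was tested on simulated data. Ratios of counts carry 95% intervals, and folds against 0 counts use a floor of 3 counts over the group; both cover counting error only, since reads without molecular identifiers are not independent molecules. Gene positions come from GENCODE M21 (GRCm38), promoters from the RefSeq table of GRCm38.p6. Of the tested genes 9375 had a promoter, and some genes had several.

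The 35 gene lists and the genes named were chosen with earlier results of these data known. The rule named 12 fixed genes, the 6 largest changes of each class at a mean of at least 20 CPM with no overlap of groups, and up to 4 genes per list with the smallest adjusted p of the difference. Some genes that the rule names are not reported here. Further genes were named after their values were seen: Adig, Aldoa, Cidec, Cxcl10, Fasn, Gbp2, H2-Ab1, Hp, Ifi27, Isg20, Jak2, Lcn2, Lrg1, Parp14, Pgk1, Scd1, Serping1, Sncg, Socs1, Timp1 and Wt1. Alternatives were RLE scaling, no low-count filter, DESeq2 1.42.0, the replicate number as a block, Treg libraries thinned to 21.4% of their counts (matched depth), each experiment fitted alone, a 2-fold size threshold, and leaving out each of the 12 libraries.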

Additional observations from a re-analysis of the deposited data

How the results depend on the processing

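For 226 genes, 11957 values were recomputed over the alternatives other than the 2-fold size threshold. Of these values, 11664 stayed on their side of the adjusted p threshold, 240 lost a call and 53 gained one. The tally therefore does not show which of these genes kept a call at the 2-fold size threshold. No value called in the reported fit changed direction, and 54 values called neither there nor under the alternative changed sign. With the Treg libraries thinned to the depth of the others, genes called with Treg numbered 3045, Treg-only genes 457 and opposed genes 322, with fewer genes tested; fewer reads come with that setting by construction. A 2-fold size threshold left 2496 genes called with OSM, 1328 with Treg, 2054 in the difference, 516 shared, 354 Treg-only and 92 opposed. Leaving out 1 library at a time gave 4645 to 5174 genes called with OSM, 4200 to 5324 with Treg, 3547 to 3839 in the difference, 2131 to 2382 shared, 1266 to 1519 OSM-only, 652 to 796 Treg-only and 425 to 482 opposed. Of the members of each class, RLE scaling kept 2348 shared, 1366 OSM-only, 695 Treg-only and 489 opposed genes, and DESeq2 kept 2204, 1292, 646 and 439. Matched depth kept 1692, 893, 411 and 303, with fewer genes tested, and the 2-fold threshold kept 516, 649, 286 and 92. Under the 7 alternatives other than leaving out libraries, all other numbers of genes called or in a class stayed within 1.5 times the value reported. Such a number can hide a change of members: at the 2-fold threshold 1111 genes were OSM-only, of which 649 were OSM-only in the reported fit. Genes with few counts in the OSM experiment, at 1072147 to 2078534 counts per library, limit what could be called there.

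Replicate numbers did not pair the libraries, with correlations of same-numbered deviations from -0.08 to 0.02. With the replicate block, 5006 genes were called with OSM, 4826 with Treg, 3715 in the difference, 2304 shared, 1399 OSM-only, 714 Treg-only and 465 opposed.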
